A study of Rattus norvegicus with 24 samples.

Results

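The 10 genes S100a8, S100a9, Il1b, Il6, Tnf, Lcn2, Saa3, Csf3r, Cxcr2 and Il1r2 mark neutrophils or rise in acute inflammation, and all 10 were found by symbol among the 30667 genes measured. They were named as a list, with earlier results of these data known, and not picked by a threshold on these values. The series is a rat model of lung cancer under smoky coal, a bituminous coal with a smoke rich in polycyclic aromatic hydrocarbons. RNA of whole lung tissue was sequenced in 24 samples whose titles hold a letter and a number. The letters A, B, C and G have 6 samples each, numbered 1 to 6, so each number occurs in 4 samples. Every sample carries the same lung tissue and smoky coal labels, and no strain, sex, age, dose, duration or control is given for any letter, nor the meaning of the number. Nothing says whether samples came from separate animals, so p-values measure the spread between these samples, and every direction below is one of letters or numbers alone.

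Neutrophils are the first white blood cells to enter inflamed lung from the blood. CSF3R, the receptor of granulocyte colony-stimulating factor, drives their production, and CXCR2 guides them along CXCL chemokines. S100A8 and S100A9 form calprotectin, the main protein of the neutrophil cytoplasm. Interleukin 1 beta, interleukin 6 and TNF are the cytokines of the acute phase, and IL1R2 is a decoy receptor that binds interleukin 1 without signalling. Lipocalin 2, which withholds iron from bacteria, and serum amyloid A3 are made by neutrophils, macrophages and epithelium under these cytokines. In whole tissue, fewer cells of a type and less RNA per cell cannot be told apart.

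The promoters of the 3 genes that stood farthest above their letter in sample A2 are printed because the levels of these genes turn on that sample. The sequences are from RefSeq, rat build GRCr8, matched by symbol (8 of the 10 genes matched, S100a8 and Il1r2 did not), and hold the 250 bases before the start of the gene, 5′ to 3′ on its strand. The windows are chr4:5894576-5894825 for Il6, chr1:106358431-106358680 for Saa3 and chr3:36081781-36082030 for Lcn2, all on the minus strand. Capitals mark matches on either strand to 3 motifs: GGGANNNNCC for NF-kappaB, TTGCNNAA for C/EBP and TTCNNNGAA for STAT factors.
Il6: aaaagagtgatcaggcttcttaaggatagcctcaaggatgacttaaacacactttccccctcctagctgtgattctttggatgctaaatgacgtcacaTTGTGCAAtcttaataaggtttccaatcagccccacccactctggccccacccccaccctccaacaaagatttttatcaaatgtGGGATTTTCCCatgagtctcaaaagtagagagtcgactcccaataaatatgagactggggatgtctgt
Saa3: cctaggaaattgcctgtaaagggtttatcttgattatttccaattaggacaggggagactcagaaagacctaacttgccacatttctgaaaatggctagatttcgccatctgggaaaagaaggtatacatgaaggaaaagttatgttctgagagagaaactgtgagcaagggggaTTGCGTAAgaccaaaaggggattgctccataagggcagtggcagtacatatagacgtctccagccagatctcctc
Lcn2: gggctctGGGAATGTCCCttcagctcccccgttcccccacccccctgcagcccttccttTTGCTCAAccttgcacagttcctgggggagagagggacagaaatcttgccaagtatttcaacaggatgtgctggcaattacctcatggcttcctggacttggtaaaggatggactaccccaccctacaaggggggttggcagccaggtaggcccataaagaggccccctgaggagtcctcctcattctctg

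The NF-kappaB letters occurred in the windows of Il6 and Lcn2, 2 of the 8 genes, against 16.4% of 33469 rat windows of the same length. In each of them, 2 overlapping matches lay on opposite strands, as GGGATTTTCC from base 68 before the start in Il6 and GGGAATGTCC from base 243 in Lcn2. The C/EBP letters occurred in Il6, Saa3 and Lcn2, 3 of 8, against 9.22% of windows. TTGCGTAA lay 75 bases before the start of Saa3. The STAT letters were in 0 of 8, against 7.67% of windows. These are matches of letters and not shown to be bound.

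All 24 samples held high levels of lung epithelial RNA, with Sftpc, the surfactant protein C gene of alveolar type 2 cells, between 603887 and 932776 normalized counts. The summed values were 61717516 to 66007148 per sample after the authors' adjustment, and the number of reads behind them is unknown. Normalized counts of different genes are not on a scale per length, so levels are compared between samples and not between genes. Samples A2 and C2 had the highest levels of all 24 for each of the 10 genes, and results are given with and without them. The submitters' processing notes name a mouse genome build for these rat samples, and reads of near-identical copies (Cxcr1 and Cxcr2, or members of the serum amyloid A family) could have been split between them. The effect of either on the levels was not tested. A4 and B4 held high skeletal muscle RNA, a sum of 59266 and 15298 normalized counts over 5 markers against at most 2698 in the other samples, and A4 high squamous RNA, 18855 over 8 markers. Without A4, 0 of the 10 genes passed over letters and 2 over numbers.

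None of the 10 passed the limma F test over the 4 letters (adjusted p = 1 for each), where 0.00652% of all genes passed. At an unadjusted p under 0.05 it was 0 of the 10 and 3.91% of all genes. Over the 6 pairs of letters, 0 of the 60 combinations of gene and pair passed in limma and 0 had an unadjusted p under 0.05. Of all genes, 0.00652% passed in G against A and in G against C, 0.00326% in G against B and 0% in the other 3 pairs. The shares of all genes with an unadjusted p under 0.05 were 3.58% in B against A, 2.98% in C against A, 1.82% in C against B, 8.15% in G against A, 3.67% in G against B and 4.03% in G against C. The letter accounted for 0.970% (Il1r2) to 10.3% (Il6) of the variance of a gene on the log2 scale, with a median of 4.54% over the 10 genes and 9.45% over all genes. Chance gives 13.04% for 4 groups of 6. For every gene the ranges of the 4 letters overlapped.

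**Figure D1:**
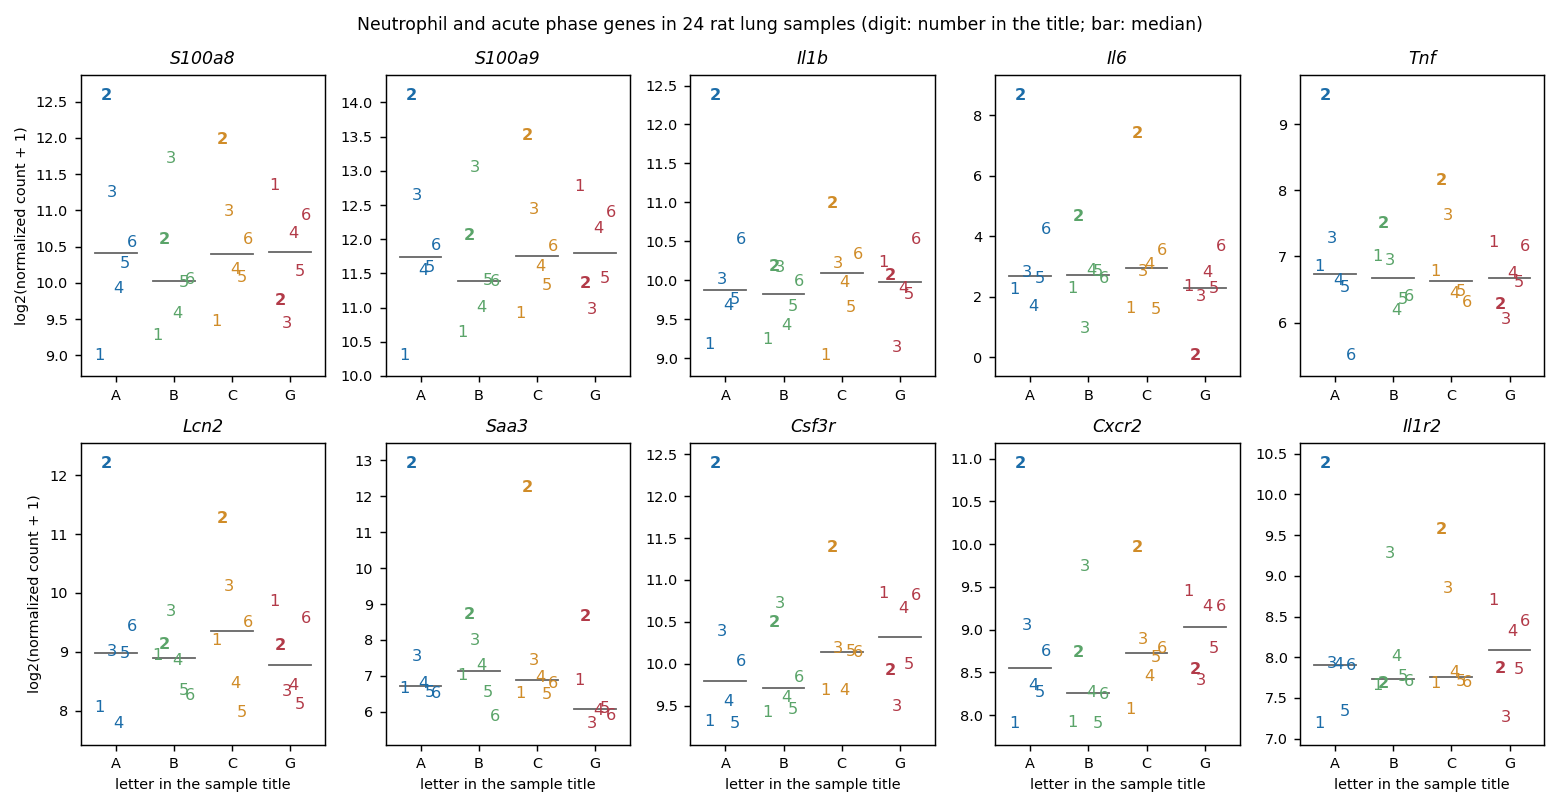
Each panel plots log2(normalized count + 1) of 1 gene for the 24 samples by letter, with each sample drawn as its number and a bar at the median of 6 samples. The digit 2 stands highest in A and C in all 10 panels, and the ranges of the 4 letters overlap in each.

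S100a8 had 510 to 6154 normalized counts in A (lowest and highest of 6 samples, median 1366), 619 to 3353 in B (median 1039), 706 to 4048 in C (median 1359) and 693 to 2599 in G (median 1392). Mean S100a8 over 6 samples (± SD) came to 2132 ± 2071 for A, 1393 ± 1011 for B, 1760 ± 1207 for C and 1481 ± 722 for G. The highest samples were A2, B3, C2 and G1. The smallest p of a pair was that of B against A, with a log2 fold change of -0.39 (SE 0.50, limma adjusted p = 1), and without A2 this difference was 0.0039.

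S100a9, the partner of S100a8 in calprotectin, ran from 1258 to 17608 normalized counts in A (median 3453), from 1597 to 8471 in B (median 2675), from 1930 to 11734 in C (median 3463) and from 2015 to 6984 in G (median 3657). The same samples were highest and lowest as for S100a8 in each letter. In B against A its log2 fold change was -0.42 (SE 0.51, limma adjusted p = 1). While S100a8 spanned a ratio of 12.1 and S100a9 one of 14.0 between the highest and lowest of the 24 samples, the ratio of S100a9 to S100a8 stayed between 2.39 (C5) and 3.06 (A4), with a median of 2.68. That ratio is not corrected for gene length, and only its narrow range over samples is of use.

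The receptor genes Csf3r, Cxcr2 and Il1r2 were highest in A2, B3, C2 and G1, as the S100 genes were. Csf3r had 623 to 5363 normalized counts in A (median 898), 680 to 1690 in B (median 841), 817 to 2685 in C (median 1125) and 717 to 1825 in G (median 1315). Without A2 and C2 the Csf3r means were 879 ± 309 for A (SD, n = 5), 1032 ± 428 for B (n = 6), 1009 ± 175 for C (n = 5) and 1323 ± 480 for G (n = 6), so G had the highest mean, within the spread of the samples. Its smallest pair p was in G against B, a log2 fold change of 0.37 (SE 0.41, limma adjusted p = 1).

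Cxcr2 gave 238 to 1968 normalized counts in A (median 376), 238 to 852 in B (median 304), 268 to 997 in C (median 424) and 339 to 697 in G (median 528). The log2 fold change in G against B was 0.49 (SE 0.40, limma adjusted p = 1). Il1r2, the decoy receptor gene, gave 144 to 1329 in A (median 239), 201 to 617 in B (median 212), 204 to 759 in C (median 216) and 153 to 413 in G (median 274). Its log2 fold change in C against B was 0.20 (SE 0.43, limma adjusted p = 1). In B a single sample, B3, held the high Il1r2 level, and the other B samples lay between 201 and 256 normalized counts.

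Of the cytokine genes, Il1b had 575 to 5308 normalized counts in A (median 945), 606 to 1156 in B (median 910), 523 to 2021 in C (median 1093) and 563 to 1469 in G (median 1007). Tnf had 44.3 to 692 in A (median 106), 71.4 to 179 in B (median 102), 77.8 to 282 in C (median 98.1) and 64.9 to 147 in G (median 101). The medians of the 4 letters were close for both genes, and the A and C means (Tnf 199 ± 244 and 140 ± 82.3, SD, n = 6) were pulled up by A2 and C2. The log2 fold change of Il1b in B against A was -0.48 (SE 0.38, limma adjusted p = 1), and that of Tnf in G against A was -0.36 (SE 0.44, limma adjusted p = 0.867), turning to 0.12 without A2.

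Il6 was low in most samples. Its normalized counts were 2.20 to 401 in A (median 5.53), 0.923 to 23.9 in B (median 5.55), 1.97 to 167 in C (median 6.78) and 0.0425 to 11.7 in G (median 3.94). Apart from A2 and C2, the highest Il6 level was 23.9 in B2. The log2 fold change in G against A was -1.51 (SE 1.0, limma adjusted p = 0.729), and -0.51 without A2.

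Among the products of inflamed tissue, Lcn2 had 218 to 4704 normalized counts in A (median 505), 304 to 825 in B (median 475), 248 to 2451 in C (median 654) and 275 to 927 in G (median 449). The log2 fold change of Lcn2 in C against B was 0.55 (SE 0.57, limma adjusted p = 1). Saa3 had 89.5 to 7685 in A (median 105), 57.1 to 421 in B (median 141), 88.4 to 4799 in C (median 117) and 49.9 to 399 in G (median 66.1). The sample numbered 2 was the highest of its letter for Saa3 in all 4 letters, with 7685 in A2, 421 in B2, 4799 in C2 and 399 in G2. The log2 fold change of Saa3 in G against A was -1.28 (SE 0.98, limma adjusted p = 0.769), and -0.26 without A2.

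The second comparison was between the 6 numbers, with the letter in the model. Saa3 (limma adjusted p = 0.000120), Il1b (0.0217) and Lcn2 (0.0425) passed, 3 of the 10 genes, where 31.5% of all genes passed, so the share is near that of the whole table. At an unadjusted p under 0.05 it was 4 of the 10, and 41.9% of all genes. Tnf (limma adjusted p = 0.0888), Il6 (0.129), Csf3r (0.130), S100a9 (0.158), Cxcr2 (0.188), S100a8 (0.234) and Il1r2 (0.332) did not. The number accounted for a median of 37.4% of the variance of the 10 genes and 37.1% of all genes, where chance gives 21.7%. For Saa3 it was 72.8%. Without the 4 samples numbered 2, 0 of the 10 passed, with Saa3 at a limma adjusted p of 0.163, and without A2 and C2 alone Saa3 was the 1 gene that passed. Without C2 alone the count was also 1, since Il1b and Lcn2 no longer passed.

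Mean Saa3 was 3326 ± 3568 normalized counts in the samples numbered 2 (SD, n = 4), and the other 5 numbers had means of 79.1 to 164. Mean Il1b was 2387 ± 1995 in number 2, 1311 ± 220 in number 6 and 726 ± 318 in number 1, with the others between 844 and 980. Mean Lcn2 was 2066 ± 1972 in number 2, 691 ± 348 in number 3, 620 ± 213 in number 6 and 567 ± 275 in number 1, with numbers 4 and 5 at 344 ± 98.8 and 336 ± 113. The SD of number 2 was near the size of its mean. For Saa3 and Lcn2, B2 and G2 lay far under A2 and C2. For Il1b, A2 (5308) stood far above C2 (2021), B2 (1156) and G2 (1063).

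Within the letters A, B and C alone, the 10 genes were read over the numbers as a description. The G samples were left out after the values were seen, so the p-values here do not test the pattern. The 10 genes also correlate with each other and are not 10 separate results. All 10 passed the F test over numbers (limma adjusted p from 0.000370 for S100a9 to 0.0492 for Il1r2), where 28.1% of all genes passed. The number then accounted for a median of 77.5% of the variance of the 10 genes, against 48.3% over all genes and 29.4% by chance. With the samples numbered 2 left out as well, 8 of the 10 still passed, where 22.6% of all genes did. Il6 (limma adjusted p = 0.428) and Lcn2 (0.113) were the exceptions. Leaving out only A2 and C2 beside the G samples also gave 8 of 10, where 22.7% of all genes passed. The count moved with single G samples: without G2 alone, 9 of the 10 genes passed among the 23 samples, and without G1 alone 5 did.

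**Figure D2:**
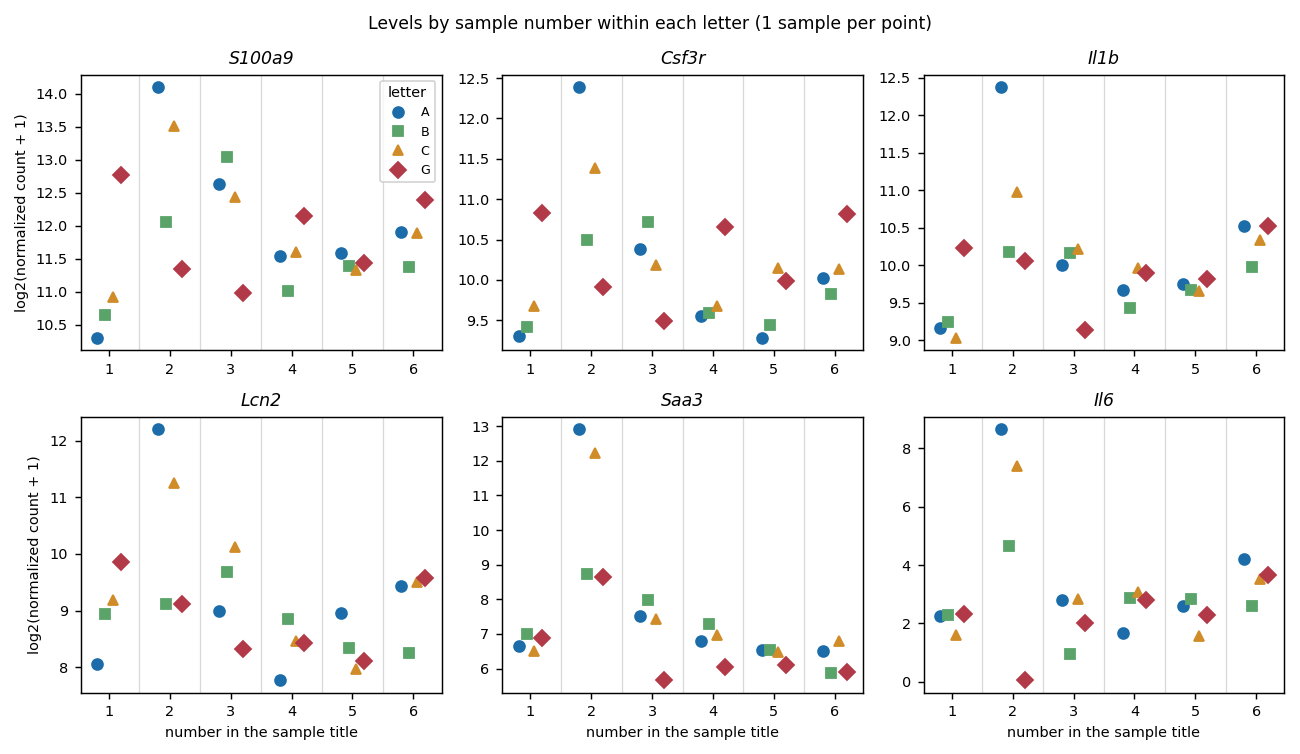
Each panel plots log2(normalized count + 1) of 1 gene against the number in the title, with 1 point per sample, coloured by letter. For S100a9, the A, B and C samples numbered 1 lie lowest in each letter (1258 to 1930 normalized counts) and G1 lies highest in G (6984).

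Numbers 1 and 3 showed the contrast most plainly. They were picked after the values were seen, so the counts over these correlated genes are a description. S100a8 had 510, 619 and 706 normalized counts in A1, B1 and C1 and 2424, 3353 and 2018 in A3, B3 and C3. In G the order was the other way round, with 2599 in G1 and 693 in G3. Csf3r followed with 635, 680 and 818 in A1, B1 and C1, 1340, 1690 and 1160 in A3, B3 and C3, and then 1825 in G1 and 717 in G3. The sample numbered 3 was above the one numbered 1 for 10 of the 10 genes both in A and in C, for 8 in B (not Il6 and Tnf) and for 0 in G. Of all genes, 53.5% were higher in A3 than A1, 54.4% in C3 than C1, 52.6% in B3 than B1 and 47.5% in G3 than G1. There was 1 sample for each letter and number, and the difference between G and the other letters was not tested.

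A2 and C2 held the highest levels of their letters for all 10 genes, where 26.5% of all genes were highest in A2 among the A samples and 20.5% highest in C2 among the C samples. B2 was highest of B for 4 of the 10 (18.5% of all genes), and G2 highest of G for 1, Saa3 (22.7% of all genes). A2 and C2 were already known to stand out, so these counts are a description. Against the median of the other 5 samples of its letter, A2 was 5.01-fold (S100a8) to 79.7-fold (Il6) higher and C2 2.02-fold (Il1b) to 43.5-fold (Saa3) higher. All 10 genes were thus at least 2-fold higher in each, where 11.9% of all genes were in A2 and 8.59% in C2.

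Saa3 and Il6 stood far above the other genes in this respect. Saa3 was 76.8-fold higher in A2 and 43.5-fold in C2, and Il6 79.7-fold and 27.0-fold, the latter from levels of 5.03 and 6.17 normalized counts. Lcn2 was 9.43-fold and 4.19-fold higher. Csf3r (7.15-fold and 2.40-fold), Tnf (7.01-fold and 3.23-fold), Il1b (6.16-fold and 2.02-fold), Cxcr2 (6.05-fold and 2.44-fold), Il1r2 (5.60-fold and 3.67-fold), S100a9 (5.74-fold and 3.77-fold) and S100a8 (5.01-fold and 3.48-fold) were raised less. In B2 the values were 4.75-fold for Il6, 3.30-fold for Saa3 and 2.15-fold for Tnf, with the other 7 genes between 0.940-fold and 1.87-fold. G2 had Saa3 at 6.17-fold and Lcn2 at 1.6-fold, while S100a8 (0.528-fold) and Csf3r (0.599-fold) lay under the median of the other G samples and Il6 was at 0.0425 normalized counts.

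Other genes of these pathways were read from 6 lists, none of which had a gene called in the test over letters. The counts of each list stand against 31.5% of all genes called over numbers, 11.9% at least 2-fold higher in A2 and 8.59% in C2. Of 25 neutrophil granule and surface genes, 15 were called over numbers by the limma F test (31.5% of all genes), and 13 were at least 2-fold higher in A2 and 7 in C2. Their median log2 difference from the other samples of the letter was 1.15 in A2 and 0.30 in C2, against -0.01 in both for all genes. Ncf1, a subunit of the NADPH oxidase that makes the oxidative burst, had 5835 normalized counts in A2 and 2991 in C2, against 1066 to 3497 in the other samples (limma adjusted p = 2.59e-05 over numbers). Cybb, its catalytic subunit, had 13754 and 10849, inside the 6299 to 15684 of the others (adjusted p = 0.000123). The test over numbers also takes in B2 and G2. Means over the 4 samples numbered 2 were 3931 for Ncf1 and 12567 for Cybb, above C2 in both. High levels of these 2 genes were thus not particular to A2 and C2. The following genes were named after their values were seen. Cd177, a surface protein of mature neutrophils, had 11415 and 5951 normalized counts against 232 to 2641, and Retnlg 3970 and 3004 against 231 to 951. Granule genes that are transcribed in the bone marrow differed among themselves. Mpo had 251 in A2 and 3.76 in C2 against 2.13 to 94.0 in the others, while Ngp had 18.7 and 26.9 against 4.83 to 197, and Camp 67.0 and 67.5 against 26.9 to 172. Cxcr1, the sister receptor of Cxcr2, was at 434 and 432, near the low end of the 389 to 1931 of the other samples.

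**Figure D3:**
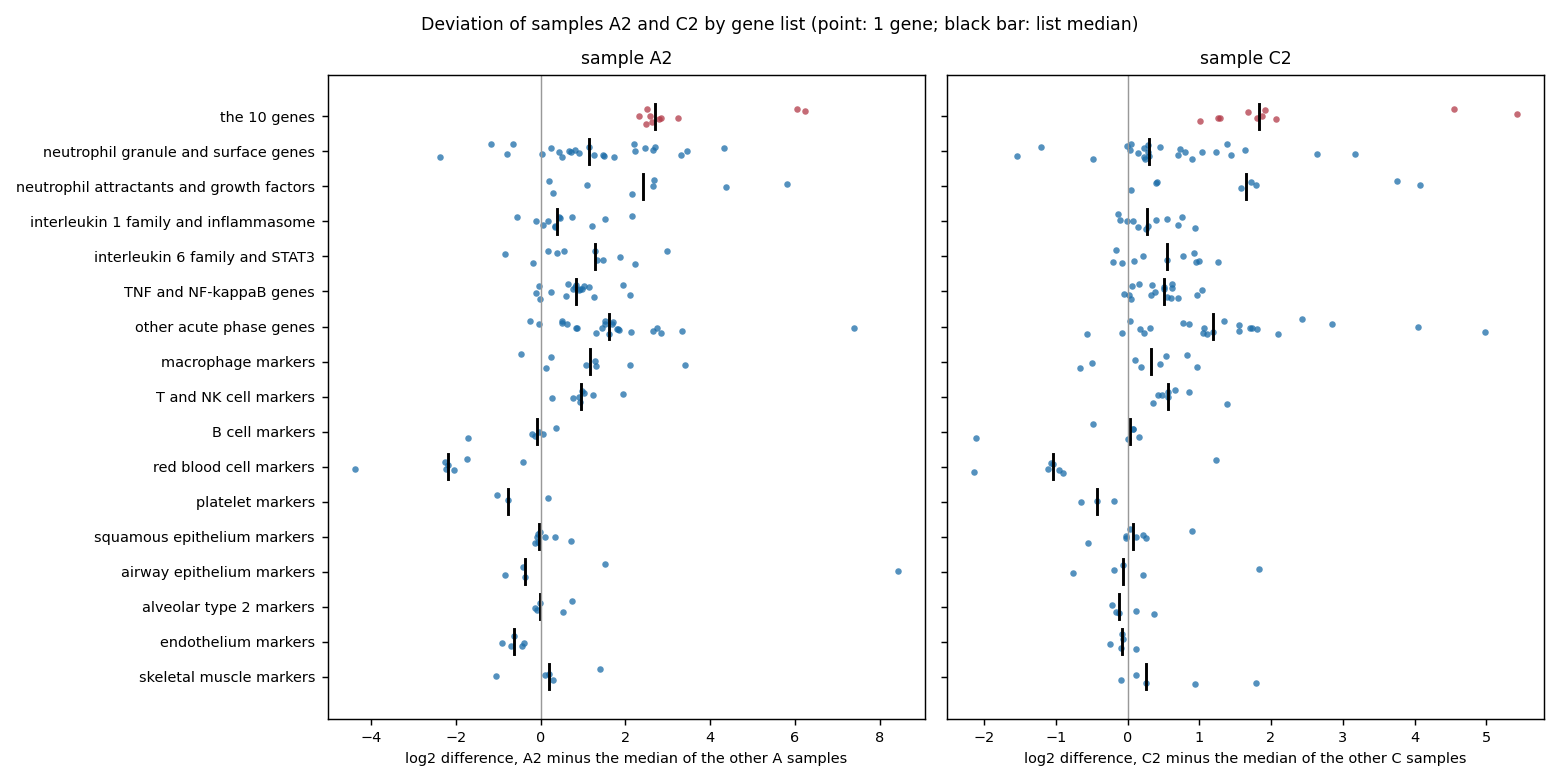
Points give, for each gene of a list, the log2 difference of A2 (left) or C2 (right) from the median of the other 5 samples of its letter, and black bars give list medians. The 10 genes have medians of 2.71 and 1.83, the attractants 2.41 and 1.65, and the red blood cell markers -2.18 and -1.04.

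Attractants and growth factors of neutrophils were the next list. Of 8 genes found, 6 were at least 2-fold higher in A2 and 5 in C2, with median log2 differences of 2.41 and 1.65, and 3 were called over numbers by limma, a share near the 31.5% of all genes. Cxcl5, a CXCR2 ligand of lung epithelium, had 1366 normalized counts in A2 and 519 in C2, against 26.0 to 254 in the others (adjusted p = 0.0115 over numbers). Csf1, the macrophage growth factor, had 9684 and 5875 against 3050 to 5695 (adjusted p = 0.0157). Named after their values were seen, Csf3, which encodes the ligand of CSF3R, had 225 and 52.4 against 0.998 to 6.82, and Cxcl1 had 5043 and 2198 against 416 to 1479. Csf2 had 154 and 145, inside the 99.4 to 233 of the other samples.

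Of 23 other acute phase genes, 16 were called over numbers by the limma F test (31.5% of all genes), and 16 were at least 2-fold higher in A2 and 15 in C2, with median log2 differences of 1.62 and 1.19 (11.9% and 8.59% of all genes were 2-fold higher). The 15 in C2 include low levels of Saa2 (13.6 normalized counts), Crp (20.4), Fga (8.74), Fgb (15.65) and Hamp (20.4), whose folds are imprecise. All of these but Saa2 lay inside the range of the samples other than A2 and C2. In A2, Fga (10.9) and Fgb (5.93) were counted from low levels too. Ptx3, a pentraxin made in the tissue itself, had 3800 normalized counts in A2 and 925 in C2, against 302 to 1078 (adjusted p = 0.000223 over numbers). Cd14, the co-receptor for bacterial lipopolysaccharide, had 5786 and 3589 against 1558 to 3175 (adjusted p = 7.19e-05). C3, the central complement protein, and Orm1, an acute phase glycoprotein, were named after their values were seen. C3 had 67897 and 38911 normalized counts against 11695 to 30369, and Orm1 180 and 88.5 against 0 to 17.3. Crp was low throughout, at 2.94 in A2, 20.4 in C2 and at most 34.9 elsewhere.

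The remaining 3 lists held signalling genes, with median log2 differences of 1.30 and 0.55 (interleukin 6 and STAT3), 0.85 and 0.50 (TNF and NF-kappaB) and 0.39 and 0.27 (interleukin 1 and inflammasome) in A2 and C2. In the interleukin 6 and STAT3 list, 6 of 11 genes were at least 2-fold higher in A2 and 2 in C2 (11.9% and 8.59% of all genes), and 7 were called over numbers by limma (31.5% of all genes). Osm, which encodes oncostatin M, had 243 and 173 normalized counts against 38.4 to 141 in the others (adjusted p = 0.000224), and Lifr, the leukaemia inhibitory factor receptor gene, had 10580 and 16628 against 12567 to 25693 (adjusted p = 0.000236). In the TNF and NF-kappaB list, 5 of 17 genes reached that size in A2 and 1 in C2, the latter a share under the 8.59% of all genes, and 7 were called over numbers by limma, not far from the 31.5% of all genes. Traf1, an adaptor of TNF receptors, had 1219 and 884 against 511 to 870 (adjusted p = 0.000292), and Ltb, which encodes lymphotoxin beta, 3065 and 2140 against 1260 to 2411 (adjusted p = 0.000846). The interleukin 1 and inflammasome list had 3 of 12 in A2 and 0 in C2, with 11 called over numbers by limma (31.5% of all genes). Pycard, the inflammasome adaptor, had 1019 and 695 against 441 to 1034 (adjusted p = 4.59e-05), and Il18 1869 and 1549 against 1176 to 2679 (adjusted p = 7.12e-05). Mean Pycard over the 4 samples numbered 2 was 908.5, above C2.

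Markers of other cells also differed in A2 and C2. All 8 T and NK cell markers were highest in A2 among A and in C2 among C, as were 26.5% and 20.5% of all genes. Of the 8, 3 were at least 2-fold higher in A2 and 1 in C2 (11.9% and 8.59% of all genes). Their median log2 differences were 0.95 and 0.57. The T and NK sum was 12445 and 9787 normalized counts against 5005 to 10684 in the other samples, the upper end from G. The 8 macrophage markers summed to 44324 and 34392, inside the 29430 to 57707 of the others, but most of that sum came from Csf1r and Mrc1. By gene, 5 of the 8 were at least 2-fold higher in A2 and 0 in C2, 6 were highest of A in A2 and 4 highest of C in C2, and the median log2 differences were 1.18 and 0.33. Fabp4, of lung macrophages and endothelium, had 8592 normalized counts in A2 and 438 in C2 against 392 to 4239 (named after its values were seen), and Marco, a defining marker of alveolar macrophages, was under 10 normalized counts in every sample. Cd68 had 6386 and 4425 against 1878 to 6760 (limma adjusted p = 3.34e-06 over numbers), and the monocyte receptor gene Ccr2 2005 and 1073 against 375 to 1137 (adjusted p = 1.97e-05). Means over the 4 samples numbered 2 were 5917 for Cd68 and 1288 for Ccr2, above C2 in both. High levels of these 2 genes were thus not particular to A2 and C2. Red blood cell markers summed to 156644 in A2 and 249463 in C2, inside the 126091 to 1083377 of the 22 other samples. Among the A samples A2 was the lowest, under the 260165 to 1083377 of the others, while C2 lay inside the 161918 to 773911 of the other C samples. Endothelial markers summed to 153547 in A2, under the 179558 to 302777 of the 22 samples other than A2 and C2, and to 236254 in C2. Alveolar type 2 markers (1370684 and 1221880), squamous (1656 and 1620) and B cell markers (8267 and 7150) lay inside the range of the others, and so did the platelet sums (2119 and 1887). Airway markers summed to 329616 in A2, under the 342770 to 685378 of the 22 other samples, and to 446485 in C2. That sum was nearly all Scgb1a1, and the other airway genes were mixed. Against the median of the other samples of the letter, Scgb3a2 was 0.747-fold in A2 and 1.16-fold in C2. Foxj1 was 0.779-fold in A2 and 0.955-fold in C2. Bpifa1 was 356-fold in A2 (12158 normalized counts, inside the 0.00896 to 70692 of the 22 other samples) and 0.577-fold in C2. Muc5b was 2.85-fold in A2 and 3.55-fold in C2. Bpifa1, Muc5b and Scgb3a2 were named after their values were seen.

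The limma F test over numbers called 8 of 8 T and NK cell, 6 of 6 B cell, 5 of 5 endothelium, 5 of 7 red blood cell, 4 of 5 airway, 4 of 5 alveolar type 2, 4 of 8 macrophage, 2 of 8 squamous, 1 of 3 platelet and 1 of 5 skeletal muscle markers, where 31.5% of all genes were called, so that the squamous, platelet and muscle shares were near or under it. Sftpa1, a surfactant protein gene, had 478718 and 354918 normalized counts in A2 and C2 against 213686 to 400170 (adjusted p = 0.000170), and the club cell gene Scgb1a1 303417 and 432920 against 331909 to 652541 (adjusted p = 0.000301). Trac, the constant part of the T cell receptor alpha chain, had 1806 and 1539 against 603 to 1647 (adjusted p = 2.39e-07). Its mean over the 4 samples numbered 2 was 1577, above C2. The part of these cells in the levels of the 10 genes was not tested.

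Across the 24 samples the 10 genes correlated in 45 pairs, all with a positive Spearman's rho (0.257 to 0.980), and 34 passed a permutation test with 100000 resamples after Benjamini-Hochberg adjustment over the 45. The permutation moved samples freely over letters and numbers, although samples of the same number deviated together, so its p-values may be too small. Since A2 and C2 stand apart, the values over the other 22 samples are given, where rho was 0.036 to 0.974 and 21 pairs passed. S100a8 and S100a9 had a rho of 0.974 and Pearson's r of 0.991 (permutation test, adjusted p = 0.000112 and 5.62e-05). Csf3r and Cxcr2 had a rho of 0.905 and r of 0.927 (permutation test, adjusted p = 0.000112 and 5.62e-05). S100a8 and Cxcr2 had a rho of 0.874 and r of 0.893 (permutation test, adjusted p = 0.000112 and 5.62e-05), and S100a8 and Il1b a rho of 0.799 and r of 0.799 (permutation test, adjusted p = 0.000193 and 5.62e-05). In all 45 pairs A2 and C2 were also the 2 samples farthest from the median of the first gene.

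**Figure D4:**
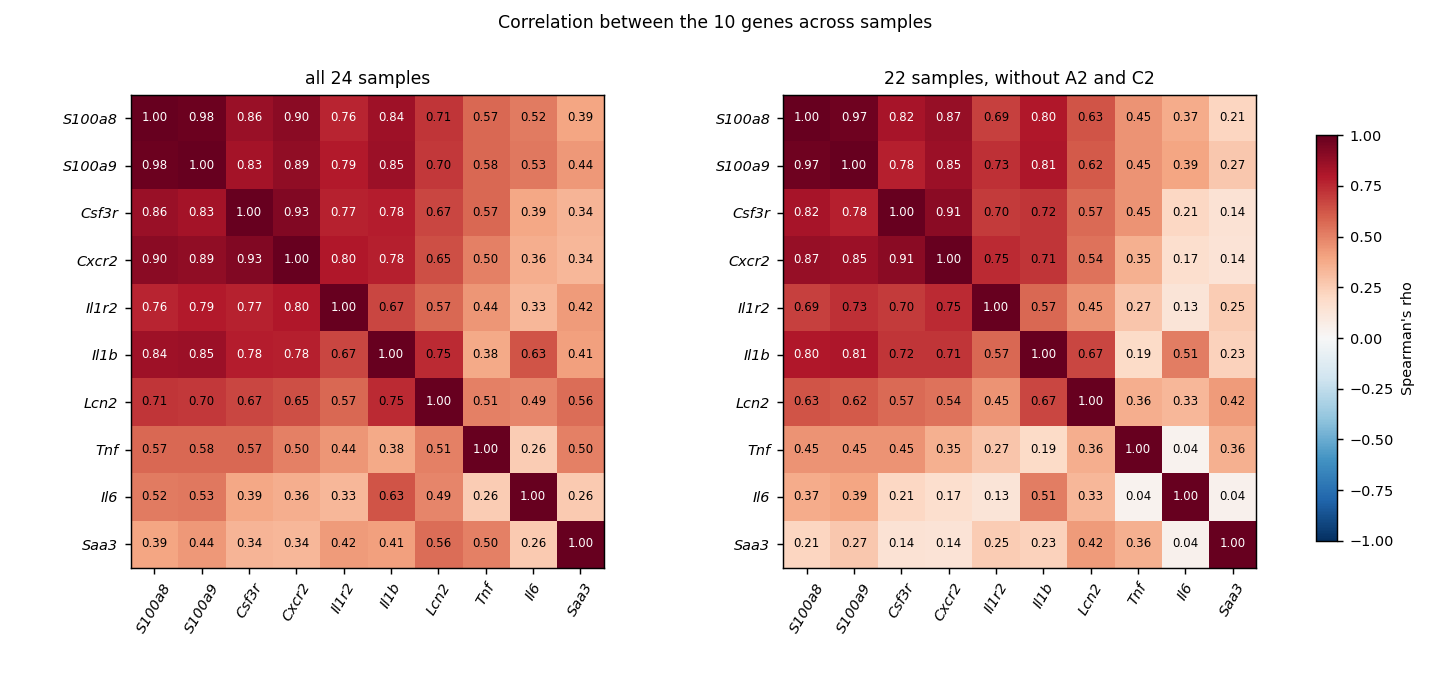
The 2 heat maps give Spearman's rho between the 10 genes over all 24 samples (left) and over the 22 without A2 and C2 (right). S100a8, S100a9, Csf3r, Cxcr2, Il1r2 and Il1b stay together on the right (rho 0.572 to 0.974). With them, Lcn2 has values of 0.448 to 0.671, and Il6, Saa3 and Tnf have values of 0.132 to 0.514.

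The S100 genes, the 3 receptor genes and Il1b formed a block over the 22 samples, with rho between 0.572 and 0.974 in its 15 pairs. Lcn2 passed with 5 of these 6 genes, with rho from 0.540 (Cxcr2, r 0.522, permutation test, adjusted p = 0.0236 and 0.0276) to 0.671 (Il1b, r 0.556, permutation test, adjusted p = 0.00276 and 0.0185), and had a rho of 0.448 and r of 0.609 with Il1r2 (permutation test, adjusted p = 0.0689 and 0.00636). Il6 passed by rho with Il1b alone (rho 0.514 and r 0.412, permutation test, adjusted p = 0.0338 and 0.102), and Tnf and Saa3 with none of the 6. Saa3 and Il6, the genes raised most in A2 and C2, had an r of 0.732 and rho of 0.262 with each other over 24 samples (permutation test, adjusted p = 0.00257 and 0.22). Over the 22 samples this became an r of -0.13 and rho of 0.041 (permutation test, adjusted p = 0.617 and 0.875), so their relation rested on A2 and C2. With S100a8, Saa3 had a rho of 0.212 and r of 0.236 (permutation test, adjusted p = 0.419 and 0.382), and Il6 a rho of 0.371 and r of 0.233 (permutation test, adjusted p = 0.146 and 0.382). Within single letters, S100a8 and Cxcr2 had an r of 0.953 (A), 0.936 (B), 0.968 (C) and 0.984 (G) over 6 samples each. S100a8 and Saa3 had an r of 0.840 in A and 0.873 in C, the letters that hold A2 and C2, and of 0.512 in B and -0.138 in G. After removal of the mean of each number, S100a8 and Cxcr2 had an r of 0.917.

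Of the other genes with a mean of at least 10 normalized counts, those most like each of the 10 over the 24 samples were read by Spearman's rho, as a description. Nlrp12, which encodes a leukocyte regulator of inflammation, was among the closest 2 to S100a8 (rho 0.938), S100a9 (0.913), Csf3r (0.952) and Cxcr2 (0.926). Mmp9, the gelatinase of neutrophil granules, was the second for S100a8 (0.906) and S100a9 (0.910). Csf1r-ps was the closest to Csf3r (0.960) and the second for Cxcr2 (0.923). Il1b was closest to the integrin gene Itgb7 (0.928) and the T cell receptor subunit gene Cd247 (0.914). Il1r2 was closest to Pglyrp1 (0.864), a bactericidal protein of neutrophil granules, and to Oas3 (0.833). Il6 was closest to Rel (0.801) and Socs3 (0.796), the feedback inhibitor of STAT3 signalling. Lcn2 was closest to St3gal4 (0.857) and Malt1 (0.855), Tnf to Gm6992 (0.856) and the complement gene C1ra (0.840), and Saa3 to Zmynd19 and Gm14328 (0.862 each). These genes were chosen for this likeness out of the whole table.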

How the data were processed

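RNA sequencing of 24 rat lung samples was deposited by the authors as 1 table of normalized read counts (a signal per gene, not whole numbers). The submitters' processing notes name STAR and GRCm38, a mouse genome build, with no role given, although the samples are rat. The counter, annotation and normalization are not given in the sources used here. Of the 30667 gene names, 16143 (52.6%) match a symbol of the rat build GRCr8. Whole reads could not be recovered, so no count test was run.

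Values were analysed as log2(value + 1) with limma 3.58.1 in R 4.3.3, with an empirical trend, over all genes. The letters were tested with an F test over 4 groups and 6 pair contrasts, without a replicate block, and the numbers with an F test in a model that also holds the letter. Benjamini-Hochberg adjustment ran over all genes, with a threshold of 0.05. The procedure was tested on simulated data. Folds in single samples are ratios of normalized counts to the median of the other 5 samples of the letter. The 10 genes and the 16 lists of pathway and marker genes were chosen with earlier results of these data known. The rule for named genes took, per list, up to 2 genes called over letters and up to 2 over numbers by smallest p, the pair of letters with the smallest p of each of the 10 genes, and the 2 genes of highest Spearman rho with a mean of at least 10. Not all of them are printed, and other list genes were picked after their values were seen. Samples of the same number deviated together in B against A (r 0.169 to 0.590 over 21922 genes) and C against B (0.127 to 0.596), with r over 0.1 in all 6 pairs. In the other 4 contrasts r was over 0.1 in 4 or 5 of 6 pairs, with the lowest from -0.045 to 0.091. The printed pair results are all from the unpaired fit, and the fit with the number as block was an alternative for every contrast. The alternatives tried were other scalings, pseudocounts and filters, the block, and leaving out samples.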

Additional observations from a re-analysis of the deposited data

Results flagged for a closer look

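In 20 of the 40 groups of a gene and a letter, 1 sample stood apart by Dixon's gap test on normalized counts (critical value 0.625 for 6 samples). Chance gives about 2 only for normal and independent groups, so the 20 are a description and not a test. On the log2 scale 1 sample stood apart in 9 groups. Those 9 were Il6, Lcn2, Saa3, Csf3r and Il1r2 in A2, Il6, Saa3 and Csf3r in C2, and Il1r2 in B3. The 10 genes are not independent of each other, so these are not 20 separate events. Of the 20, 10 fell in A2 and 5 in C2.

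In A2 the values were 6154 normalized counts for S100a8, 17608 for S100a9, 5308 for Il1b, 401.0 for Il6, 692 for Tnf, 4704 for Lcn2, 7685 for Saa3, 5363 for Csf3r, 1968 for Cxcr2 and 1329 for Il1r2. C2 stood apart in S100a9 (11734), Il6 (166.7), Saa3 (4799), Csf3r (2685) and Cxcr2 (997.1). The other 5 lay in B and G. B3 stood apart in S100a8 (3353), Cxcr2 (852.2) and Il1r2 (616.9), B2 in Il6 (23.9), and G2 in Saa3 (398.6).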

How the results depend on the processing

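Quantile normalization, scaling to the 75th percentile, pseudocounts of 0.1 and 10 and a mean filter of 10 left 0 of the 10 genes called over letters. The smallest adjusted p of any alternative was 0.531. Over letters, 2 of all genes were called, 1 under quantile normalization, 75th percentile scaling, a pseudocount of 10, without the samples numbered 2 or without A2 and C2, and 1 to 2 when each sample was left out in turn. With the replicate block 12 were called, and 0 of the 10 genes changed call in the paired fit, over letters or in any pair. Over numbers, 3 of the 10 became 0 without the samples numbered 2, 1 without A2 and C2, 10 without the G samples, 8 without the G samples and the samples numbered 2, 8 without the G samples, A2 and C2, and 1 to 9 when each sample was left out in turn. The settings without A2 and C2 and without G were chosen after seeing the data. Lcn2 lost its call over numbers with 75th percentile scaling (adjusted p = 0.0518) and in 13 of 24 fits that left out 1 sample, and Il6 gained one with a pseudocount of 10 (0.0261).

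Some small letter differences turned sign without samples numbered 2. S100a8 in B against A became 0.0039 (log2) without A2 and without A2 and C2, kept its sign at -0.08 without all samples numbered 2, and ran from -0.7144 to 0.0039 when each sample was left out in turn. Tnf in G against A became 0.12 in both of these and 0.19 without the samples numbered 2, and ran from -0.6721 to 0.1151 when each sample was left out. Il1r2 in C against B became -0.0698 without C2 and without A2 and C2, and -0.14 without the samples numbered 2, and ran from -0.0698 to 0.4528 when each sample was left out. The cause of these changes was not tested. Depth is unknown, and Il6, with most values under 10, has the least precision.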
